A study of Mus musculus with 12 samples.

Results

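The genes described here are 10 regulators and effectors of heat production in fat: Ppargc1a, Ppargc1b, Prdm16, Adrb3, Dio2, Ucp1, Ucp2, Ucp3, Cidea and Elovl3. They were taken by symbol, with no threshold on measured values, from a table of 27473 features counted by RNA-seq, of which 20379 had at least 1 read in some library. Each of the 10 symbols had 1 feature. The RNA came from 3T3-L1 adipocytes, mouse fibroblasts of an established line after they were turned into fat-storing cells in culture, and the study asked what more or less Dnmt3a, a DNA methyltransferase, does to their gene expression.

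There were 4 groups of 3 libraries each: Dnmt3a, which overexpressed Dnmt3a from a pCDH vector; GFP, which carried green fluorescent protein in the same vector; shDnmt3a, which received a hairpin against Dnmt3a; and shScr, which received a scrambled hairpin. Cells of all groups had been differentiated with 1 uM dexamethasone, 0.5 mM IBMX and 5 ug/ml insulin until day 2 and with insulin for 2 more days, were transduced with lentivirus on day 8 over 2 days, and were harvested 4 days after transduction, as the labels have it. The study's methods give a shorter contact with the virus. The overexpression and hairpin groups carried different vectors, so shScr and GFP differ in more than the insert; no source used here names the Dnmt3a hairpin. The design text speaks of biological triplicates. No source used here says that replicates were grown as separate cultures, so the p-values measure a spread between libraries that may be technical only.

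Brown and beige adipocytes burn fuel to make heat. Noradrenaline binds beta-adrenergic receptors, cyclic AMP rises, protein kinase A is activated, and the coactivator PGC-1alpha (Ppargc1a) drives mitochondrial genes and Ucp1, whose protein lets protons leak back across the inner mitochondrial membrane. 3T3-L1 cells are used as a model of white adipocytes, in which this program is usually weak. IBMX, part of the differentiation mix, blocks the breakdown of cyclic AMP.

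Promoter sequence is shown for 4 of the genes. For Ppargc1a, Dio2 and Ucp3 the means of the 4 groups had 1 common order, given below, though every step was called for Ucp3 only. Ucp2, the neighbour of Ucp3, had another order. Windows of 300 bases, 250 before and 50 after the start, were read from RefSeq's promoter table (GRCm38.p6) for 6 of the 10 genes. Each of the 4 windows was found once, unaltered, in NCBIM37 (mm9), the build of the counts, whose coordinates are given. In the first pair, capitals mark TGACG on either strand, the half-site of the cyclic AMP response element. The windows are chr5:51958915-51959214 on the minus strand for Ppargc1a and chr12:91977429-91977728 on the minus strand for Dio2, both written 5′ to 3′ along the gene; the Dio2 window lies upstream of the GENCODE vM1 model of the gene.
Ppargc1a: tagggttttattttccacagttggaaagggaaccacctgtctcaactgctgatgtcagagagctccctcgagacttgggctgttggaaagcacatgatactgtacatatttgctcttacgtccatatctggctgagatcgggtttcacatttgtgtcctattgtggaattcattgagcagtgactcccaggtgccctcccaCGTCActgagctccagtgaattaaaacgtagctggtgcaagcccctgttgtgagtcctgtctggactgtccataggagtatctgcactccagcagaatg
Dio2: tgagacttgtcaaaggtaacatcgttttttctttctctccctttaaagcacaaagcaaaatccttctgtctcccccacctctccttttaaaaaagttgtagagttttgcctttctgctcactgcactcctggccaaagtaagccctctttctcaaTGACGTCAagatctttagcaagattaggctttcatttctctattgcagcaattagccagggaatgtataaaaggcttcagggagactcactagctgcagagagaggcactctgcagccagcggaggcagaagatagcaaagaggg
Ppargc1a held 1 TGACG, on the strand opposite to the gene, 49 bases before the start. Dio2 held the whole palindrome TGACGTCA, 95 bases before the start, which contains TGACG on both strands. Of the 32851 promoters in the table, 1.79% held TGACGTCA and 20.8% held TGACG on either strand.

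In the second pair, capitals mark CpG, the dinucleotide that Dnmt3a methylates. The windows are chr7:107621250-107621549 for Ucp3 and chr7:107641617-107641916 for Ucp2, both on the plus strand.
Ucp3: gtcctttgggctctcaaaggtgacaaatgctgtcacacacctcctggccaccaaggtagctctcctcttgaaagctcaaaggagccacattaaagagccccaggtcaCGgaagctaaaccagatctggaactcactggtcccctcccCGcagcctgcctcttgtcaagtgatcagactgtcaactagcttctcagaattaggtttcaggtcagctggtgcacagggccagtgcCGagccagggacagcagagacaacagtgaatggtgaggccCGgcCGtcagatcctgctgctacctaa
Ucp2: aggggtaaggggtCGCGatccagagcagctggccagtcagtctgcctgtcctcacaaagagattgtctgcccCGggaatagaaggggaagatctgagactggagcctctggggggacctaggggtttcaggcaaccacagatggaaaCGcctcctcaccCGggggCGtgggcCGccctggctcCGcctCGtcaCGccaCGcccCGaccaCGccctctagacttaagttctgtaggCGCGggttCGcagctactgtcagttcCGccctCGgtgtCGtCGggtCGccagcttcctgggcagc
Ucp3 held 5 CpG and Ucp2 held 21, against a median of 7 over the table. Ppargc1a held 5 and Dio2 held 3, and the other genes whose windows were read, Ucp1 and Prdm16, held 15 and 24. Ucp2, Ucp3 and Ucp1 each held 1 TGACG. The nuclear receptor half-site AGGTCA was found, with both strands searched, at 2 places in Ucp3 and 1 in Ucp1, and in 16.3% of all promoters; TNAAGGTCA, the element of estrogen-related receptors, which contains AGGTCA, was in none of the 6 and in 1.28% of all. These are matches of letters, and DNA methylation was not measured in the files used here.

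Library totals ran over 29084732 to 40762934 counts in Dnmt3a, 34796944 to 47341091 in GFP, 35013931 to 40973267 in shDnmt3a and 30406492 to 37403514 in shScr, and replicates of a group differed by more than sampling noise (chi-square per degree of freedom 2.52 to 10.7). Dnmt3a itself was 29.5-fold higher in Dnmt3a than in GFP libraries and in shDnmt3a libraries stood at 0.487 of its shScr level. Of 10 markers of mature adipocytes, 9 had group means above 10 CPM in every group, with Fabp4, the fatty acid carrier, at 3885 to 6502 CPM, whereas Lep, the leptin gene, had a group mean of 0.293 to 0.462 CPM. Preadipocyte and fibroblast markers were also present, with Col3a1 collagen at 5627 to 11593 CPM. Of the 8 muscle and 8 macrophage markers, the highest group means were those of Acta1 (2.94 to 4.10 CPM), Cd68 (2.90 to 7.12 CPM) and Cd14 (4.58 to 6.23 CPM), while Myod1 (muscle) and Emr1 (macrophage) were at 0 in all libraries. The highest group mean of any of the 5 endothelial markers was 0.960 CPM (Pecam1). In bulk RNA, fewer cells that express a gene and less of its RNA per cell cannot be told apart.

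Levels of the 10 genes were first compared per length, as RPKM averaged over the 12 libraries. Ucp2 was the highest at 46.99 RPKM, followed by Adrb3 at 32.6, Ucp3 at 22.5, Ppargc1a at 13.97, Cidea at 7.48 and Ppargc1b at 5.80. These 6 genes stood between the 64.9th and the 93.6th percentile of features with any count. Far below them were Dio2 at 0.0943 RPKM, Elovl3 at 0.0880, Ucp1 at 0.0148 and Prdm16 at 0.0101. Thus the receptor and the coactivators were clearly detected, and Ucp1 and Prdm16 were barely detected.

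Counts were compared by edgeR's quasi-likelihood test, with p-values adjusted by Benjamini-Hochberg over all features kept by its filter on low counts, and 0.05 was the threshold of the adjusted p below which a gene is said to be called. Levels within a gene are CPM, counts scaled to library size by TMM, and SE is the standard error of a log2 fold change. Of the 10 genes 8 could be tested in each comparison, and Prdm16 and Ucp1 had too few reads. On overexpression, 3 of the 8 were higher in Dnmt3a than in GFP libraries (Adrb3, Ucp2 and Ucp3), 0 were lower and 5 were not called; 0 were lower also at an unadjusted p under 0.05 and by DESeq2, which tested 6. Over all 14168 features tested, 14.3% were higher, 12.9% lower and 27.2% called in either direction. On knock-down, 6 of the 8 were lower in shDnmt3a than in shScr libraries (Ppargc1a, Ppargc1b, Adrb3, Dio2, Ucp3 and Cidea), 1 was higher (Ucp2) and 1 was not called (Elovl3). Here 22.5% of the 14115 features were lower, 23.3% higher and 45.8% called. The median log2 fold change of the 8 genes was 0.203 on overexpression and −0.36 on knock-down, beside −0.0066 and −0.00027 over all features tested.

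**Figure D1:**
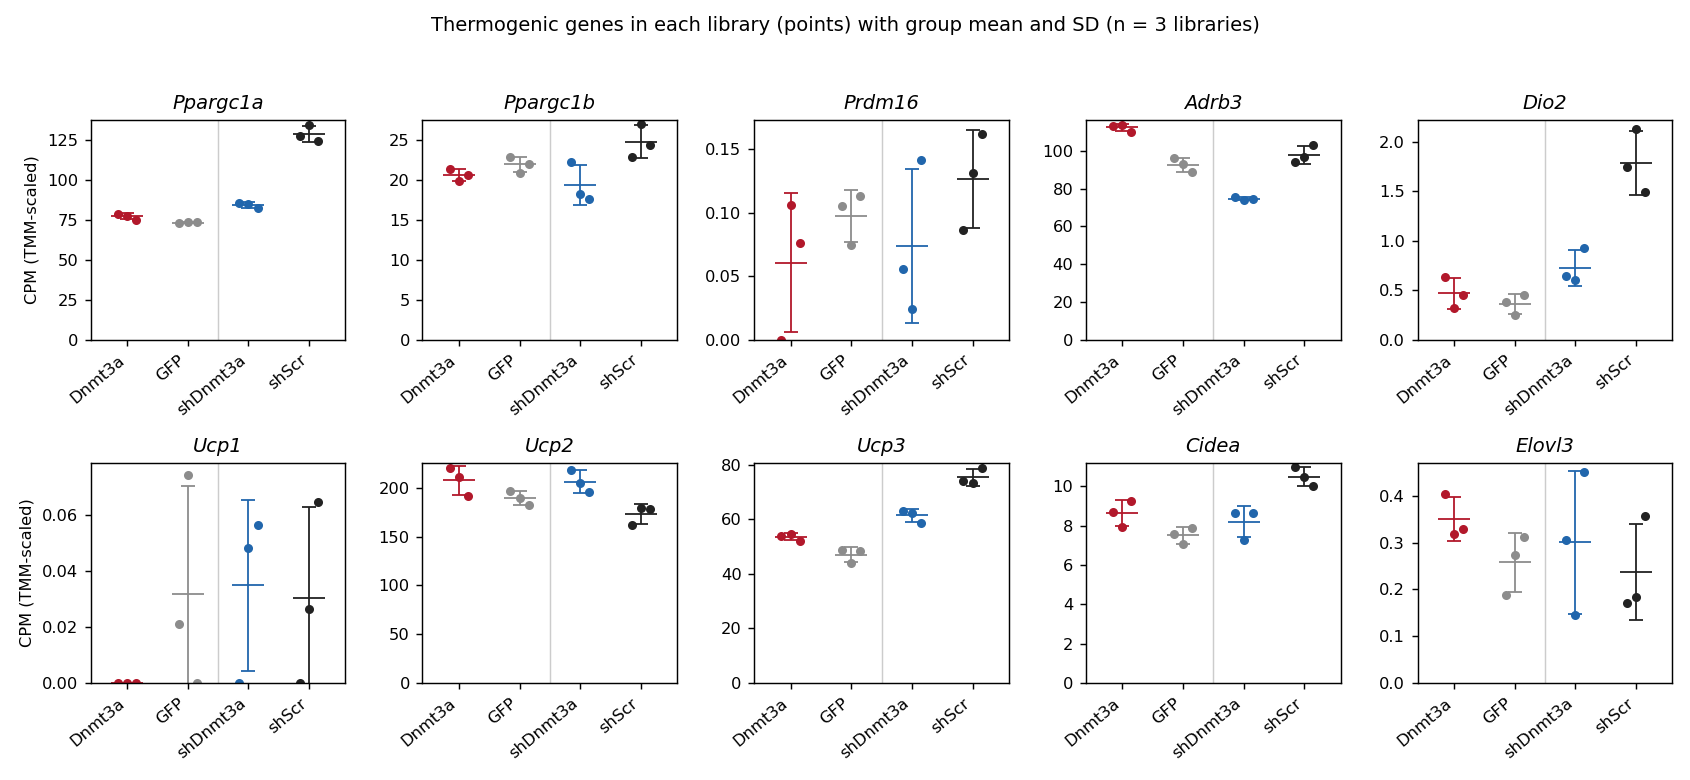
Level of each gene in every library, in CPM after TMM scaling (y axes start at 0 and differ between panels), for the Dnmt3a, GFP, shDnmt3a and shScr groups; points are libraries, and bars are the group mean ± SD (n = 3). The shScr libraries are the highest for Ppargc1a, Dio2, Ucp3 and Cidea and the lowest for Ucp2, while Adrb3 is highest in Dnmt3a and lowest in shDnmt3a libraries.

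Ppargc1a encodes PGC-1alpha, the coactivator at the centre of the program (uc008xkc.2; chr5:51845488-51958964, minus strand). Its level was 85.6, 84.6 and 82.1 CPM in shDnmt3a libraries, against 127, 134 and 124 CPM in the shScr libraries. The groups did not overlap. The log2 fold change on knock-down was −0.61 (SE 0.039, adjusted p = 1.76e-10), a ratio of 0.654. On overexpression it stood at 78.7, 77.3 and 75.0 CPM in Dnmt3a and at 72.7, 73.5 and 73.4 CPM in GFP libraries. All 3 Dnmt3a libraries were above all 3 GFP libraries, but by a log2 of 0.08 (SE 0.041, 95% interval −0.0063 to 0.16), which was not called (adjusted p = 0.169).

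Ppargc1b encodes PGC-1beta, a related coactivator of mitochondrial genes (uc008fbx.1; chr18:61457790-61560085, minus strand). Its levels were 22.2, 18.2 and 17.6 CPM in shDnmt3a libraries, against 22.9, 27.0 and 24.4 CPM in shScr libraries. The groups came close, since the first shDnmt3a library was just below the first shScr library, and the log2 fold change was −0.36 (SE 0.081, adjusted p = 0.00118). On overexpression the groups overlapped, at 21.4, 19.9 and 20.6 CPM in Dnmt3a and 22.9, 20.9 and 22.0 CPM in GFP libraries (log2 fold change −0.08, 95% interval −0.21 to 0.044, adjusted p = 0.349). An annotated gene on the opposite strand, AC116595.1, overlaps Ppargc1b, and reads of the 2 cannot be told apart if counting ignored strand; no source used here states the setting.

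Prdm16 is the transcription factor that commits precursor cells to brown fat and supports beige cells (uc008wbu.1; chr4:153690234-154010982, minus strand). It had 0, 3 and 3 reads in Dnmt3a, 5, 3 and 4 in GFP, 2, 1 and 5 in shDnmt3a, and 3, 5 and 5 in shScr libraries. Pooled over a group, its level was 0.0565 CPM in Dnmt3a (exact Poisson 95% interval 0.0208 to 0.123), 0.0981 in GFP (0.0507 to 0.171), 0.0716 in shDnmt3a (0.0309 to 0.141) and 0.127 in shScr libraries (0.0678 to 0.218). These intervals cover counting error only, they overlap, and no difference was detectable at this depth. Gm13133 and Gm13134 overlap the gene on the opposite strand.

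Adrb3 encodes the beta-3 adrenergic receptor, through which noradrenaline acts on mouse adipocytes (uc009lie.1; chr8:28336248-28340060, minus strand). It stood at 113, 114 and 110 CPM in the Dnmt3a libraries, against 96.3, 93.0 and 88.7 CPM in the GFP libraries. All Dnmt3a libraries were higher than all GFP libraries, with a log2 fold change of 0.28 (SE 0.040, adjusted p = 1.19e-06). In shDnmt3a libraries it stood at 75.4, 74.0 and 74.7 CPM, against 93.9, 96.9 and 103 CPM in the shScr libraries. Here all shDnmt3a libraries were lower, with a log2 fold change of −0.39 (SE 0.041, adjusted p = 1.97e-07). Of the 7 genes called in either comparison, Adrb3 was the 1 gene with its highest mean in Dnmt3a and its lowest in shDnmt3a libraries. Adrb1, which encodes the beta-1 receptor, had no read in any library.

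Dio2 encodes type 2 deiodinase, which makes active thyroid hormone inside the cell and is switched on by adrenergic signals in brown fat (uc007okf.1; chr12:91962994-91976878, minus strand). Its reads were few: 23, 25 and 33 in shDnmt3a libraries, against 61, 81 and 46 in shScr libraries. Scaled to depth, the means were 0.725 ± 0.179 CPM in shDnmt3a and 1.79 ± 0.321 CPM in shScr libraries (SD, n = 3 each). The groups did not overlap, and the log2 fold change of −1.32 (SE 0.23, adjusted p = 7.56e-05) was the largest in size among the 8 tested genes. On overexpression there were 22, 9 and 18 reads in Dnmt3a and 18, 10 and 16 reads in GFP libraries, which overlapped (log2 fold change 0.42, 95% interval −0.29 to 1.12, adjusted p = 0.408). The interval reaches past a log2 of 1, so a difference of that size lies within it. The gene overlaps Gm16738 on the opposite strand.

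Ucp1 encodes the uncoupling protein that defines thermogenic fat (uc009mjx.2; chr8:85814247-85822355, plus strand). Over all 12 libraries it had 11 reads in 442260611 counts. There were 0, 0 and 0 reads in Dnmt3a, 1, 3 and 0 in GFP, 0, 2 and 2 in shDnmt3a, and 0, 1 and 2 in shScr libraries. A count of 0 over the Dnmt3a group allows a level of up to 0.0283 CPM when the limit is set at 3 counts, and up to 0.0348 CPM as the upper end of an exact Poisson 95% interval, and the pooled levels of the other groups were 0.0327 CPM in GFP (exact Poisson 95% interval 0.00891 to 0.0837), 0.0358 in shDnmt3a (0.00975 to 0.0917) and 0.0294 in shScr (0.00606 to 0.0859). Ucp1 was therefore at the limit of detection in all 4 groups, and no difference between them could be seen at this depth.

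Ucp2 and Ucp3 encode relatives of Ucp1 that are not thought to be the main heat producers of fat; Ucp2 is expressed widely and Ucp3 mostly in muscle and brown fat. They are neighbours on chromosome 7, Ucp3 (uc009ina.1; chr7:107621499-107634941) lying 6904 bases upstream of Ucp2 (uc009inb.2; chr7:107641846-107650529) on the plus strand. The longest run of bases that their annotated transcripts share exactly is 24. Ucp3 stood at 63.2, 62.4 and 58.6 CPM in shDnmt3a libraries, against 74.2, 73.2 and 78.8 CPM in shScr libraries (log2 fold change −0.29, SE 0.044, adjusted p = 1.71e-05). On overexpression it stood at 53.9, 54.7 and 52.2 CPM in Dnmt3a libraries, against 48.9, 43.9 and 48.4 CPM in GFP libraries (log2 fold change 0.19, SE 0.049, adjusted p = 0.00289). Neither pair of groups overlapped, but the pairs stood at different levels: in the fit of 12 libraries Ucp3 was higher in shDnmt3a than in GFP libraries by a log2 of 0.38 (adjusted p = 1.02e-07) and higher in shDnmt3a than in Dnmt3a libraries by 0.19 (adjusted p = 0.00148).

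Ucp2 went up in both comparisons. It stood at 219, 205 and 195 CPM in shDnmt3a libraries, against 162, 180 and 178 CPM in shScr libraries, with no overlap (log2 fold change 0.25, SE 0.046, adjusted p = 0.00014). It stood at 220, 211 and 191 CPM in Dnmt3a libraries, against 197, 189 and 183 CPM in GFP libraries, and there the groups overlapped (log2 fold change 0.14, SE 0.044, adjusted p = 0.0188). The call on overexpression was lost without Dnmt3a replicate 1 (0.09, adjusted p = 0.17), without Dnmt3a replicate 2 (0.12, adjusted p = 0.084) and without GFP replicate 3 (0.11, adjusted p = 0.112). On knock-down the neighbours Ucp2 and Ucp3 thus moved in opposite directions.

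Cidea encodes a lipid droplet protein that is abundant in brown and beige fat (uc012beh.1; chr18:67503218-67527448, plus strand). It stood at 8.66, 7.28 and 8.63 CPM in shDnmt3a libraries, against 11.0, 10.5 and 10.03 CPM in shScr libraries (log2 fold change −0.36, SE 0.088, adjusted p = 0.00223). It stood at 8.71, 7.92 and 9.26 CPM in Dnmt3a libraries, against 7.57, 7.05 and 7.88 CPM in GFP libraries. The Dnmt3a libraries were all above the GFP libraries, by a log2 of 0.22 (95% interval 0.030 to 0.40), but this was not called (adjusted p = 0.0776); without Dnmt3a replicate 2 it was (0.27, adjusted p = 0.0473). Cidea overlaps B430212C06Rik on the opposite strand, the only 1 of 6 such neighbours of the 10 genes that is itself counted under its symbol. On knock-down B430212C06Rik was higher, at 9.98 ± 0.926 CPM in shDnmt3a and 8.15 ± 0.274 CPM in shScr libraries (SD, n = 3 each; log2 fold change 0.29, adjusted p = 0.0101), the opposite direction to Cidea. On overexpression it was also higher, at 8.17 ± 0.714 CPM in Dnmt3a and 6.70 ± 0.565 CPM in GFP libraries (0.29, adjusted p = 0.0243).

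Elovl3 encodes a fatty acid elongase that is strongly induced by cold in mouse brown fat (uc008hsk.1; chr19:46206387-46210184, plus strand). It had 14, 9 and 13 reads in Dnmt3a and 9, 11 and 11 in GFP libraries, and 11, 6 and 16 in shDnmt3a and 6, 7 and 11 in shScr libraries. The gene overlaps Pitx3 on the opposite strand. In neither comparison was it called, and the log2 fold changes were 0.48 (95% interval −0.30 to 1.25) on overexpression and 0.34 (−0.63 to 1.30) on knock-down. On overexpression the groups did not overlap once scaled to depth, and on knock-down they did.

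**Figure D2:**
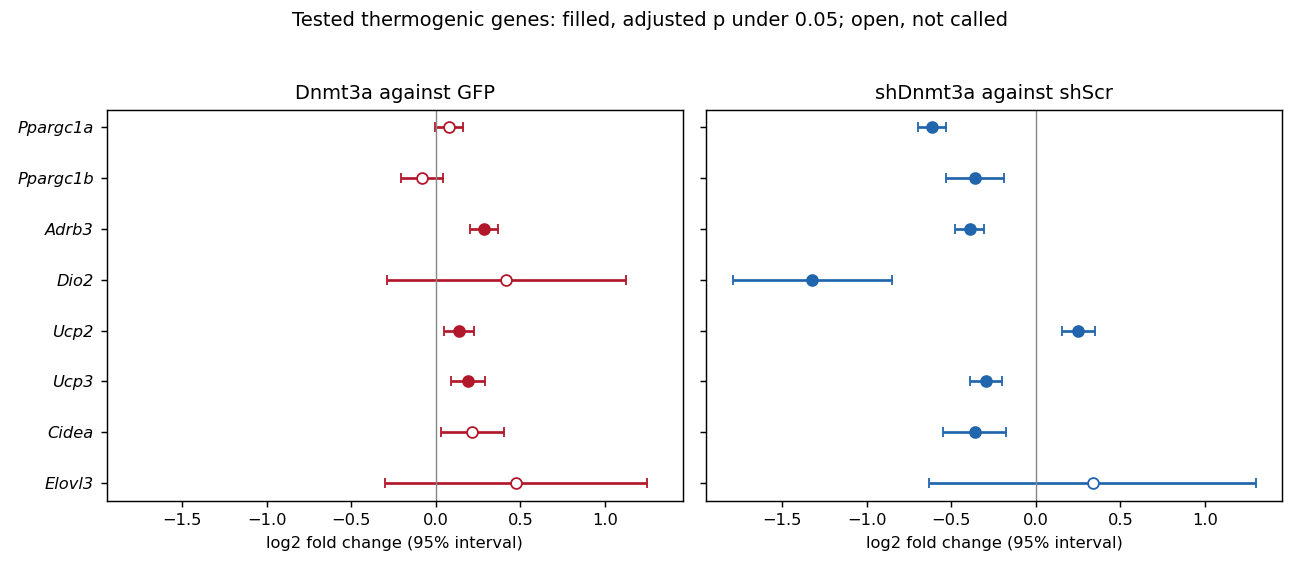
Log2 fold changes with 95% intervals for the 8 tested genes, Dnmt3a against GFP (left) and shDnmt3a against shScr (right), from edgeR fits of 6 libraries each; filled points passed an adjusted p under 0.05. On knock-down 6 of the 8 lie below 0 and are filled, and Dio2 is the farthest from 0 at −1.32; on overexpression Adrb3, Ucp2 and Ucp3 are filled and all of the called values are under 0.3.

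The difference between the 2 effects was tested itself, as knock-down effect minus overexpression effect in 1 fit of all 12 libraries. There 14491 features were tested and 40.3% were called in either direction, and the share called below 0 was not taken. It was below 0 and called for 6 of the 8 genes: Dio2 at −1.74 (adjusted p = 0.00127), Ppargc1a at −0.70 (1.42e-11), Adrb3 at −0.68 (6.04e-11), Cidea at −0.59 (0.000363), Ucp3 at −0.49 (6.22e-07) and Ppargc1b at −0.28 (0.0299). These are the genes that were lower on knock-down, and the same libraries enter this fit, so the count is not a separate result. For Ucp2 (0.11, adjusted p = 0.219) and Elovl3 (−0.15, adjusted p = 0.88) the effects were not found to differ. The Ppargc1b call was lost without GFP replicate 2, Dnmt3a replicate 1 or 3, shScr replicate 2, or shDnmt3a replicate 2 or 3, each left out alone, with values from −0.39 to −0.22 over all 12 such fits.

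The 2 control groups differed from each other in most of these genes. In the same fit of 12 libraries, 5 of the 8 were higher in shScr than in GFP libraries (Ppargc1a, Ppargc1b, Dio2, Ucp3 and Cidea) and 1 was lower (Ucp2), while 46.5% of all features were called between these groups. Dio2 was higher in shScr by a log2 of 2.33 (SE 0.27, adjusted p = 2.47e-08), with a mean of 1.79 ± 0.321 CPM in shScr and 0.360 ± 0.104 CPM in GFP libraries. Ppargc1a was higher by 0.82 (SE 0.038, adjusted p = 6.33e-17), with means of 129 ± 5.11 CPM in shScr and 73.2 ± 0.421 CPM in GFP libraries. Ucp3 was higher by 0.69 (SE 0.047) and Cidea by 0.49 (SE 0.088). For Adrb3 the 2 control groups overlapped, at 98.0 ± 4.72 CPM in shScr and 92.6 ± 3.82 CPM in GFP libraries (0.09, adjusted p = 0.0771). For Ppargc1b, Ucp2 and Adrb3 the adjusted p lay near the threshold, and leaving out any of several libraries changed the call. Ppargc1b (0.18, adjusted p = 0.0402) lost its call without GFP replicate 2 or 3, Dnmt3a replicate 2, or shScr replicate 2 or 3 (0.12 to 0.24 over the fits that left out 1 library). Ucp2 (−0.12, adjusted p = 0.0396) lost its call without GFP replicate 1 or 2, shScr replicate 1 or shDnmt3a replicate 2 (−0.15 to −0.069), and Adrb3 gained one without GFP replicate 1 (0.11) or shScr replicate 1 (0.12). Vector, insert and hairpin cannot be told apart in shScr against GFP.

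The 6 genes lower in shDnmt3a than in shScr libraries did not all lie below GFP. Against GFP, shDnmt3a libraries were still higher for Ppargc1a (0.20, adjusted p = 7.83e-05), Dio2 (1.00, adjusted p = 0.00873) and Ucp3 (0.38, adjusted p = 1.02e-07), and also for Ucp2 (0.12, adjusted p = 0.035). They were lower than GFP for Adrb3 (−0.31, adjusted p = 2.19e-07) and Ppargc1b (−0.18, adjusted p = 0.042). Left out alone, GFP replicate 1 or 3 or shDnmt3a replicate 2 or 3 ended the Ppargc1b call (−0.29 to −0.12), GFP replicate 2 or shDnmt3a replicate 3 the Dio2 call (0.79 to 1.17), and GFP replicate 2 or 3 or shDnmt3a replicate 1 or 2 the Ucp2 call (0.083 to 0.16). Of all features, 46.5% were called between shDnmt3a and GFP libraries. Cidea was not called (0.12, adjusted p = 0.269), with means of 8.19 ± 0.787 CPM in shDnmt3a and 7.50 ± 0.417 CPM in GFP libraries.

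**Figure D3:**
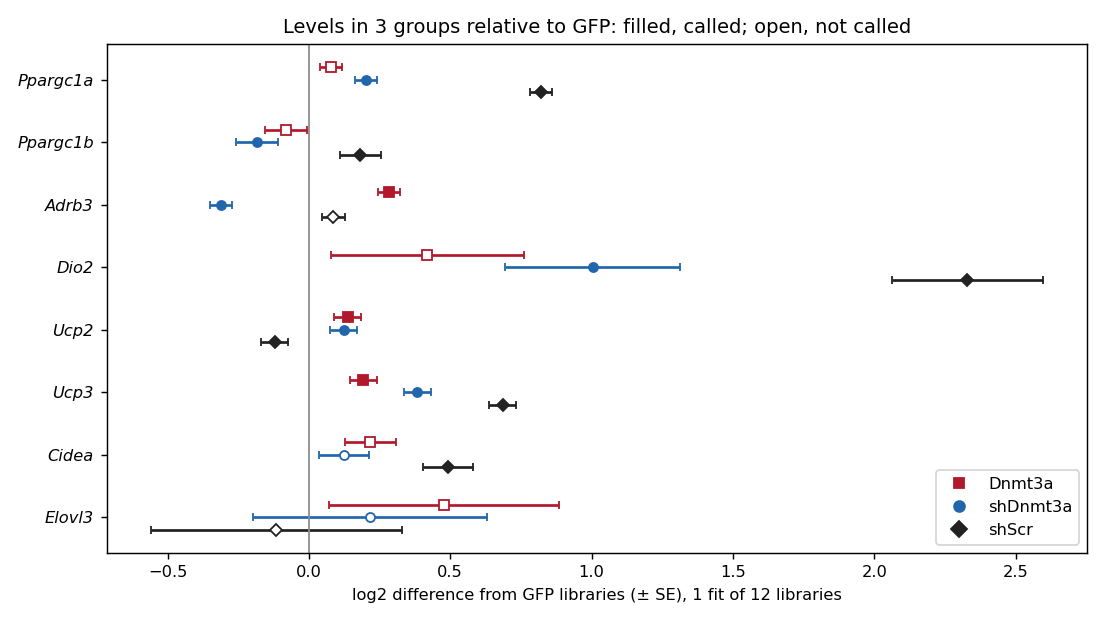
Log2 difference of the Dnmt3a (squares), shDnmt3a (circles) and shScr (diamonds) libraries from the GFP libraries (line at 0), ± SE, for the 8 tested genes in 1 edgeR fit of 12 libraries; filled symbols passed an adjusted p under 0.05. The shScr symbol lies farthest to the right for Ppargc1a, Ppargc1b, Dio2, Ucp3 and Cidea, up to 2.33 for Dio2, and farthest to the left for Ucp2.

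The order of the 4 means was the same for 3 genes, Ppargc1a, Dio2 and Ucp3, whose promoters stand above: shScr was highest, then shDnmt3a, then Dnmt3a, then GFP. Each step of this order was called for Ucp3, with 0.19 (adjusted p = 0.00148) between shDnmt3a and Dnmt3a. For Ppargc1a the step between shDnmt3a and Dnmt3a was called (0.12, adjusted p = 0.0107; without Dnmt3a replicate 3, 0.10 and 0.0647) and that between Dnmt3a and GFP was not. For Dio2 neither the step between shDnmt3a and Dnmt3a (0.58, adjusted p = 0.122) nor that between Dnmt3a and GFP passed the test. Against shScr, Dnmt3a libraries were lower for 5 genes (Ppargc1a, Ppargc1b, Dio2, Ucp3 and Cidea) and higher for Adrb3 and Ucp2, with 41.6% of all features called. Of these, Ppargc1b was not called without shScr replicate 2 (−0.20, adjusted p = 0.0501), nor Cidea without Dnmt3a replicate 2 (−0.22, adjusted p = 0.0701). Between shDnmt3a and Dnmt3a libraries 45.0% were called.

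Other orders were seen for the remaining genes. For Adrb3 the means fell in the order Dnmt3a, shScr, GFP and shDnmt3a, and only the step between shScr and GFP was not called. For Ucp2 the order was Dnmt3a, shDnmt3a, GFP and shScr, at 208 ± 14.7, 206 ± 11.7, 189 ± 7.02 and 173 ± 9.98 CPM (SD, n = 3 each), and the first 2 did not differ beyond their spread (−0.01, adjusted p = 0.856). For Ppargc1b the order was shScr, GFP, Dnmt3a and shDnmt3a, and neither of the last 2 steps was called, though without shDnmt3a replicate 1 the last was (−0.21, adjusted p = 0.0238). For Cidea, shScr at 10.5 ± 0.471 CPM stood above Dnmt3a at 8.63 ± 0.672, shDnmt3a and GFP, and the last 3 were not called apart.

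For each of the 7 genes called in either comparison, the 3 features with the most similar pattern were those with the highest Pearson correlation of log2 CPM over the 12 libraries, among 14490 other features. They were Gxylt2, Flcn and Ly6e for Ppargc1a (0.996, 0.988 and 0.987), mKIAA1308, Gpr146 and Ifi30 for Ucp3 (0.992, 0.987 and 0.981), and Pkmyt1, Cyp51 and 9030425E11Rik for Adrb3 (0.981, 0.977 and 0.972). For Dio2 they included Postn and Rcn3 (0.964 and 0.961). They were for Ppargc1b Ddx51, Prpf40b and Wdr81 (0.953, 0.94 and 0.94), for Ucp2 Grhpr, Zfp358 and Scd2 (0.941, 0.936 and 0.925) and for Cidea Sord, Got2 and Acad8 (0.93, 0.918 and 0.916). The 12 points form 4 groups of replicates that share vector and treatment, and each value is the highest of many, so these are descriptions of likeness only.

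Cell markers moved with the comparisons too. Of all features tested, 14.3% were higher and 12.9% lower on overexpression, and 23.3% and 22.5% on knock-down. On overexpression 9 of the 10 mature adipocyte markers were higher and 0 lower, also at an unadjusted p under 0.05 (median log2 fold change 0.266), and their summed level was 27330 to 27510 CPM in Dnmt3a libraries, against 21760 to 22940 CPM in GFP libraries. The 3 called thermogenic genes rose by 0.14 to 0.28, a size like that of the adipocyte markers, whose part in those rises was not tested. On knock-down 3 adipocyte markers were higher and 4 lower, with sums of 17390 to 17830 CPM in shDnmt3a and 18070 to 18710 CPM in shScr libraries. Preadipocyte and fibroblast markers summed to 13220 to 13510 CPM in shDnmt3a and 8859 to 9558 CPM in shScr libraries, mostly Col3a1 collagen (11593 CPM in shDnmt3a and 7588 CPM in shScr), and of the 9 markers 3 were higher and 4 lower. On overexpression 1 was higher and 4 lower, with sums of 6845 to 7530 CPM in Dnmt3a and 7094 to 7501 CPM in GFP libraries. The part of these markers in the knock-down results was not tested.

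Markers of muscle, macrophages and endothelium were compared as well. On overexpression 0 of 2 tested muscle markers were called, 1 of 5 macrophage markers was higher, and 0 of 3 endothelial markers were called (0 muscle and 0 endothelial markers also at an unadjusted p under 0.05). On knock-down the muscle markers were again not called, 1 macrophage marker was higher and 1 lower, and 1 endothelial marker was higher. Muscle sums were 6.23 to 6.38 CPM in Dnmt3a and 5.84 to 6.86 CPM in GFP libraries, and 5.09 to 5.90 CPM in shDnmt3a and 4.81 to 5.50 CPM in shScr libraries. They came mainly from Acta1 (2.94 to 4.10 CPM) and Ckm (1.65 to 2.00 CPM), with Myod1 at 0. Macrophage sums were 14.5 to 16.5 CPM in Dnmt3a and 13.2 to 13.6 CPM in GFP, and 10.9 to 11.6 CPM in shDnmt3a and 9.42 to 10.5 CPM in shScr libraries, of which Cd68 and Cd14 gave most. Endothelial sums did not exceed 2.19 CPM in any library.

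Genes around the thermogenic program were followed in 6 lists. Over all features tested, 14.3% were higher and 12.9% lower on overexpression, and 23.3% higher and 22.5% lower on knock-down. Beta-adrenergic receptors signal through cyclic AMP, and of 29 tested genes of that pathway 4 were higher and 3 lower in Dnmt3a than in GFP libraries (median −0.027). These were 13.8% and 10.3% of them, near the shares of all features. Gnas, the stimulatory G protein, was higher by 0.25 and Prkaca, a catalytic subunit of protein kinase A, by 0.19, while Creb1, the transcription factor at the end of the pathway, was lower by −0.15. On knock-down 12 (41.4%) were higher and 5 (17.2%) lower (median 0.073). Prkar2a, a regulatory subunit of protein kinase A, rose by 0.52 and Pde4b, a phosphodiesterase that degrades cyclic AMP, by 0.58, whereas Akap1, which anchors the kinase at mitochondria, fell by 0.40. Gnas was called higher (0.31) and Creb1 lower (−0.19) on knock-down too, the same directions as on overexpression. Prkaca was not called there (0.073).

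Transcriptional partners and opponents of thermogenic genes were called higher in 6 and lower in 3 of 35 cases on overexpression (median 0.015). These were 17.1% and 8.57% of them, beside 14.3% and 12.9% of all features. Pparg, the master regulator of fat cells, was higher by 0.24 and Esrra, a nuclear receptor that works with PGC-1alpha, by 0.16, and Ncoa2, a coactivator, was lower at −0.15. On knock-down 11 (31.4%) were higher and 7 (20%) lower (median 0.048). Kdm3a, a histone demethylase, was higher by 0.77 and Zfp516, a factor that activates Ucp1, by 0.44, while Plac8 was lower at −0.56. Pparg was called higher on knock-down too (0.15), whereas Esrra was called lower (−0.22) and Ncoa2 higher (0.12), opposite to their directions on overexpression. Thyroid hormone action, downstream of Dio2, had 3 of 11 genes higher and 0 lower on overexpression (1 lower at an unadjusted p under 0.05), and 3 higher and 3 lower on knock-down (medians −0.022 and −0.012). Each count of 3 is 27.3% of the genes tested. Thrsp, a thyroid-responsive gene of lipid synthesis, was higher by 0.38 in Dnmt3a than in GFP and lower at −0.71 in shDnmt3a than in shScr libraries. Hr, a corepressor of thyroid receptors, was higher in both (0.18 and 0.68), and Klf9 was at 0.12 and −0.18, both called.

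Other markers of brown and beige fat were called higher in 8 and lower in 1 of 24 tested genes on overexpression (median 0.1), and higher in 9 and lower in 7 of 25 on knock-down (median 0.044). These were 33.3% and 4.17% on overexpression, and 36% and 28% on knock-down. Cox8b, a brown-fat subunit of cytochrome c oxidase, was at 99.2 ± 6.96 CPM in Dnmt3a and 69.3 ± 3.23 CPM in GFP libraries (log2 fold change 0.52), and at 79.8 ± 3.50 CPM in shDnmt3a and 121 ± 7.03 CPM in shScr libraries (−0.59). On overexpression Cox7a1, another subunit of that enzyme, was higher by 0.47 and Slc25a20, the mitochondrial carnitine carrier, by 0.28. On knock-down Fgf21, a hormone that promotes browning, was higher by 3.44, at 2.22 ± 0.342 CPM in shDnmt3a and 0.214 ± 0.210 CPM in shScr libraries (SD, n = 3 each). Tnfrsf9, a receptor used as a beige marker, was higher by 1.86, Ntrk3, a neurotrophin receptor, by 1.31, Cyp2b10, a cytochrome P450, by 1.29 and Cpt1b, which brings fatty acids into mitochondria, by 1.01, while Sp100, a nuclear body protein, was lower at −0.96. Levels were low for Tnfrsf9 (0.991 CPM in shDnmt3a and 0.258 CPM in shScr libraries) and Cyp2b10 (0.836 and 0.337 CPM). The beige markers Tmem26, Tbx1 and Cited1 were too low to be tested, and their highest group mean was 0.0374 CPM (Tbx1 in shScr).

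Heat can also be made without Ucp1, by cycles of creatine, calcium or fatty acids. Of the genes of these routes 7 of 16 (43.8%) were higher and 0 lower on overexpression (median 0.118, with 1 lower at an unadjusted p under 0.05). Those called higher encode ADP/ATP carriers, glycerol phosphate dehydrogenases and lipases, and the tested genes of the creatine and calcium cycles were not called. On knock-down 6 of 17 (35.3%) were higher and 6 (35.3%) lower (median 0.088). Slc25a5, an ADP/ATP carrier, was higher by 0.25 in Dnmt3a than in GFP libraries, Mgll, a monoglyceride lipase, by 0.27 and Gpd2, the mitochondrial glycerol phosphate dehydrogenase, by 0.28. On knock-down Mgll was higher again (0.62), but Gpd2 and its cytosolic partner Gpd1 were lower, at −0.54 and −0.63. Ckmt2, a mitochondrial creatine kinase, was higher by 2.47 at a low level (0.438 CPM in shDnmt3a and 0.0798 CPM in shScr libraries), and Alpl, a phosphatase of the creatine cycle, by 1.01.

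Paralogs of the 10 genes showed mixed changes, 2 of 10 higher and 1 lower on overexpression and 3 higher and 2 lower on knock-down (medians −0.0044 and 0.053). These were 20% and 10% on overexpression, and 30% and 20% on knock-down. Cidec, the white-fat relative of Cidea, was higher in both comparisons (0.17 and 0.20), whereas Cidea was called on knock-down and then in the opposite direction. Pprc1, the third member of the PGC-1 family, was lower at −0.69 in Dnmt3a than in GFP libraries. Elovl1 was higher by 0.12 there and by 0.16 on knock-down, both called. On knock-down Elovl6, which elongates palmitate, was lower at −1.16 and Elovl5, which elongates polyunsaturated fatty acids, was higher by 0.41.

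**Figure D4:**
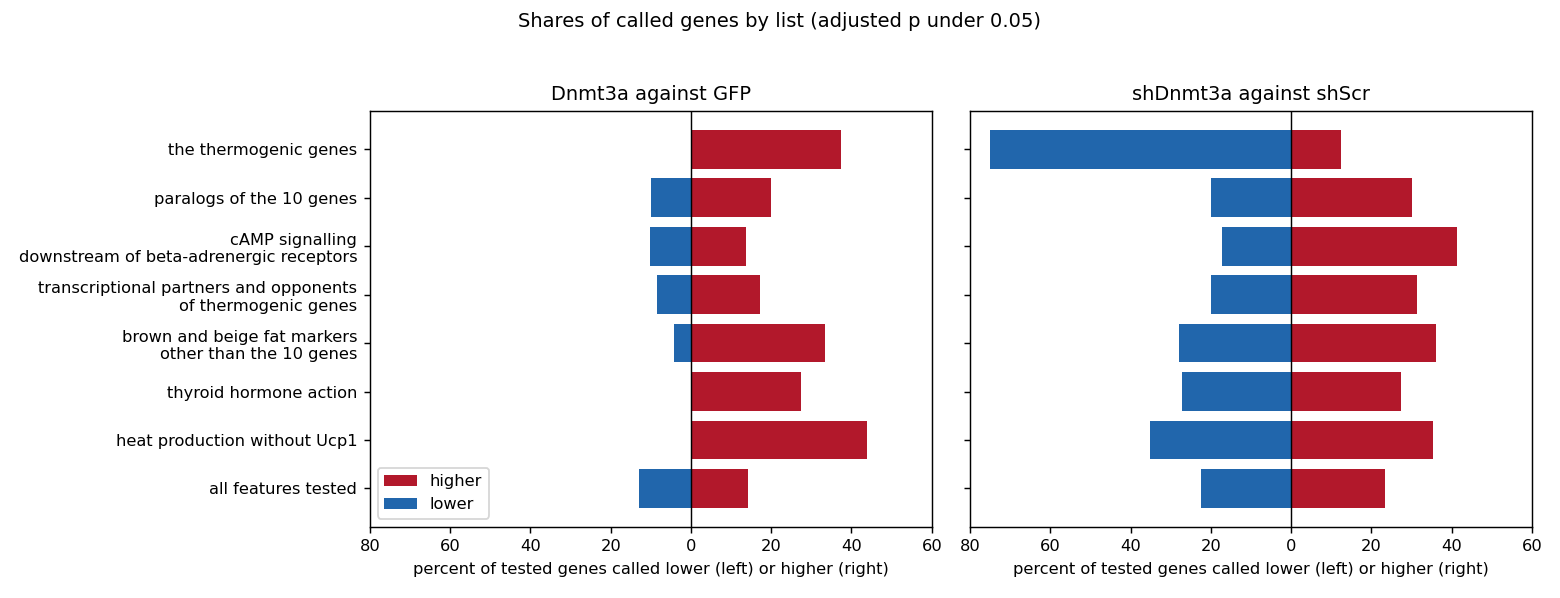
Share of tested genes called higher (right) or lower (left) at an adjusted p under 0.05 in each list for overexpression (left panel) and knock-down (right panel). On knock-down the thermogenic genes have 6 of 8 lower, beside 22.5% of all features; on overexpression 3 of 8 are higher, beside 14.3% of all features, and heat production without Ucp1 has 7 of 16 higher.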

How the data were processed

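The 12 RNA-seq libraries of 3T3-L1 adipocytes fell into 4 groups. The authors depleted ribosomal RNA, made TruSeq libraries, sequenced them on a HiSeq2500, used TopHat2 (2.0.14) for alignment to mm9, with Picard (2.2.4) and SAMtools (0.1.19), and featureCounts (1.4.6) for counting on gene models altered so that they overlap less. The tools come from the study's methods, and the versions from the submitters' processing notes. The deposited table holds counts in whole numbers for each feature, without normalization. No source used here states the strand setting.

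Tests were run in edgeR (4.0.16, with R 4.3.3) by quasi-likelihood on TMM-scaled counts after filterByExpr with a minimum count of 10, in separate fits of Dnmt3a against GFP and shDnmt3a against shScr, and in 1 fit of 12 libraries for the other pairs and the difference of effects. p-values were adjusted by Benjamini-Hochberg over all features tested. Standard errors match the F statistic. CPM use TMM factors of all 12 libraries, and RPKM the deposited lengths. Library totals of 29084732 to 47341091 counts set the precision of each level, and the common biological coefficient of variation was 3.98% and 4.03%.

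The genes, the lists and the tests were chosen with earlier results of these data known. The text names all 10 genes; Dnmt3a; of each of 6 pathway lists the 3 features with the smallest p in each comparison and any other that was called and changed by a log2 of 1 or more; markers of adipocytes and those of other cells above 1 CPM; and for each called gene the 3 features most correlated with it, of which 1 is not reported here. Pecam1, Tmem26, Tbx1, Cited1, Adrb1, Lep, Myod1, Emr1 and B430212C06Rik were named outside the rule, after their values were seen. On simulated counts with 200 genes changed, the test recovered 93.9% at a log2 change of 1 and 71.7% at 0.5 on overexpression (14039 features, 6.32% false calls), and 91% and 75.5% on knock-down (13993 features, 7.82% false calls). In the data 27.2% and 45.8% of features were called, a far larger share than was changed in the simulation, so these rates need not hold for the data. Alternatives were RLE size factors, no or a stricter filter (1 CPM in 3 libraries), DESeq2 (1.42.0), 1 fit of 12 libraries, a replicate block, counts summed per symbol, an adjusted p under 0.01, and leaving out each library. Gene positions follow GENCODE vM1 on NCBIM37.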

Additional observations from a re-analysis of the deposited data

How the results depend on the processing

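On knock-down, 6 genes were lower and 1 higher under all 8 alternatives and without any 1 library, and on overexpression 2 to 3 were higher and 0 lower. At an adjusted p under 0.01, 1143 features were lower on overexpression, against 1826 at 0.05, and Ucp2 was no longer called there (adjusted p = 0.0188). The stricter filter and DESeq2 left 6 of the 10 genes tested on overexpression. With no filter on low counts, Prdm16 and Ucp1 were tested and not called (Prdm16 −0.69, adjusted p = 0.651, and Ucp1 −3.42, adjusted p = 0.282, on overexpression; −0.79, adjusted p = 0.517, and 0.26, adjusted p = 0.916, on knock-down); Ucp1's values rest on counts at or near 0 and are no bounds.

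Leaving out 1 library turned the sign of uncalled values only. For Elovl3 they ran from −0.073 to 0.71 in shDnmt3a against shScr, −0.19 to 0.58 in shDnmt3a against GFP, −0.67 to 0.10 in shDnmt3a against Dnmt3a, −0.49 to 0.066 in shScr against GFP, and −0.56 to 0.23 for knock-down effect minus overexpression effect. For Ucp2 in shDnmt3a against Dnmt3a they ran from −0.071 to 0.024. All features lower on overexpression ran from 1373 to 1780.

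Over all features tested, libraries of the same replicate number did not deviate together between Dnmt3a and GFP or between shDnmt3a and shScr (correlations of −0.062 to 0.0038). Other pairs of groups, and single genes, were not checked in this way. With the replicate block, the number of genes lower in shDnmt3a than in GFP was 1 in place of 2, as Ppargc1b missed the threshold (−0.18, adjusted p = 0.051); the cause was not tested. The block changed no other call of the 10 genes.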
